A study of Mus musculus with 8 samples.

Results

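The enzymes that carry carbon from hexose phosphate through pyruvate into the citrate cycle were read in pancreatic islets of ob/ob and ob/+ mice. The set is a list of 41 enzymes, chosen by name but with earlier results of these data known. The hexokinases, Ldha and succinate dehydrogenase were left out. Each of the 41 had a value in the deposited tables, which list 20715 genes. Islets are small clusters of hormone cells in the pancreas, and most of those cells are beta cells, which make insulin. RNA was sequenced in 4 libraries from ob/ob mice, which carry a mutation in both copies of the leptin gene Lep and become obese, and in 4 from ob/+ mice, which carry it in a single copy. All were C57BL/6 mice of 12 weeks, so the controls also carry the ob allele, and no wild-type islets are part of the comparison. Islets were released with collagenase, purified on a density gradient and picked by hand, per the labels' protocols. The labels do not say whether a library is a single mouse or a pool, so each p-value reads the spread among libraries and part of that spread may be technical.

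Beta cells sense glucose by metabolising it. Glycolysis breaks hexose down to pyruvate in the cytosol, pyruvate enters the mitochondrion either as acetyl-CoA through pyruvate dehydrogenase or as oxaloacetate through pyruvate carboxylase, and the citrate cycle feeds electrons to the respiratory chain, whose ATP closes the channels that hold the cell at rest. Beta cells are known for high pyruvate carboxylase, for shuttles that carry glycolytic electrons into mitochondria, and for little lactate formation.

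Values were FPKM, which count fragments per length of transcript and per sequencing depth, so that levels of different genes can be set side by side. Summed FPKM ran from 920734 to 1004230 in ob/ob and from 820968 to 880570 in ob/+, between 11363 and 11883 genes per library reached 1 FPKM, and the relative depth, a rough estimate from the steps between low values, ran from 0.994 to 1.08. Lep had no value in any library, so its transcript gives no check of the genotype. The insulin genes took 57.1% to 65.6% of summed FPKM in ob/ob and 42.0% to 54.3% in ob/+. Of other cells, 33 listed acinar (digestive enzyme) genes took 2.64% to 9.13% in ob/ob and 5.67% to 19.2% in ob/+, with ob/+ 4 the highest (exact two-sided permutation p = 0.143, where the smallest possible is 0.0286). All 5 delta and PP cell markers and 5 of 6 alpha cell markers were lower in ob/ob, and the sixth alpha marker was higher. The summed alpha markers ran from 8666 to 12040 FPKM in ob/ob and from 25250 to 31790 FPKM in ob/+. The summed delta and PP markers ran from 3746 to 5906 FPKM in ob/ob and from 12580 to 17220 FPKM in ob/+. The summed beta cell markers, insulin included, ran from 586100 to 708400 FPKM in ob/ob and from 396200 to 498000 FPKM in ob/+, with 3 of 8 lower and 2 higher. Of 4 tested duct markers 2 were higher. None of 5 endothelial or 6 tested macrophage markers passed the test. No list had a marker at 0 in every library. In whole islets fewer cells of a type and less RNA per cell cannot be told apart, and the part of these shifts in the results on the enzymes was not tested.

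All 41 enzymes passed the expression filter of 1 FPKM in at least 4 libraries, and 13 of them fell in ob/ob while none rose (limma, a linear model on log2(FPKM + 1), Benjamini-Hochberg adjusted p under 0.05 over 11747 genes). Those 13 are 31.7% of the set, and 10.6% of all tested genes were called lower and 8.21% higher. At an unadjusted p under 0.05, 17 were lower and 2, Pdk1 and Mdh1, were higher, where 19.2% of all tested genes were lower and 12.0% higher. The median log2 fold change of the set was -0.17, against -0.07 over all tested genes. In 15 enzymes each ob/ob library lay below each ob/+ library, which held for 10.7% of all tested genes, and in 1 enzyme, Pdk1, each lay above, as in 9.75% of all tested genes. Of the 13, 8 kept their call in each other setting in which they were tested: Aldoa, Aldoc, Pfkl, Pfkp, Pcx, Pdk4, Idh3a and Gpd2. The others, Tpi1, Pgam1, Eno1, Eno2 and Ldhb, lost it once the library totals were taken without their 10 most abundant genes, where 8 enzymes and 5.35% of all genes were called lower. Without ob/+ 4, 23 enzymes were called lower, beside 32.1% of all tested genes, and the 10 added were Pfkfb2, Pkm, Dlat, Dld, Cs, Idh3b, Ogdh, Dlst, Sucla2 and Glud1, at log2 changes of -0.43 to -0.21. Without both ob/+ 4 and ob/ob 1, 20 were called lower, beside 26.0% of all tested genes.

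**Figure D1:**
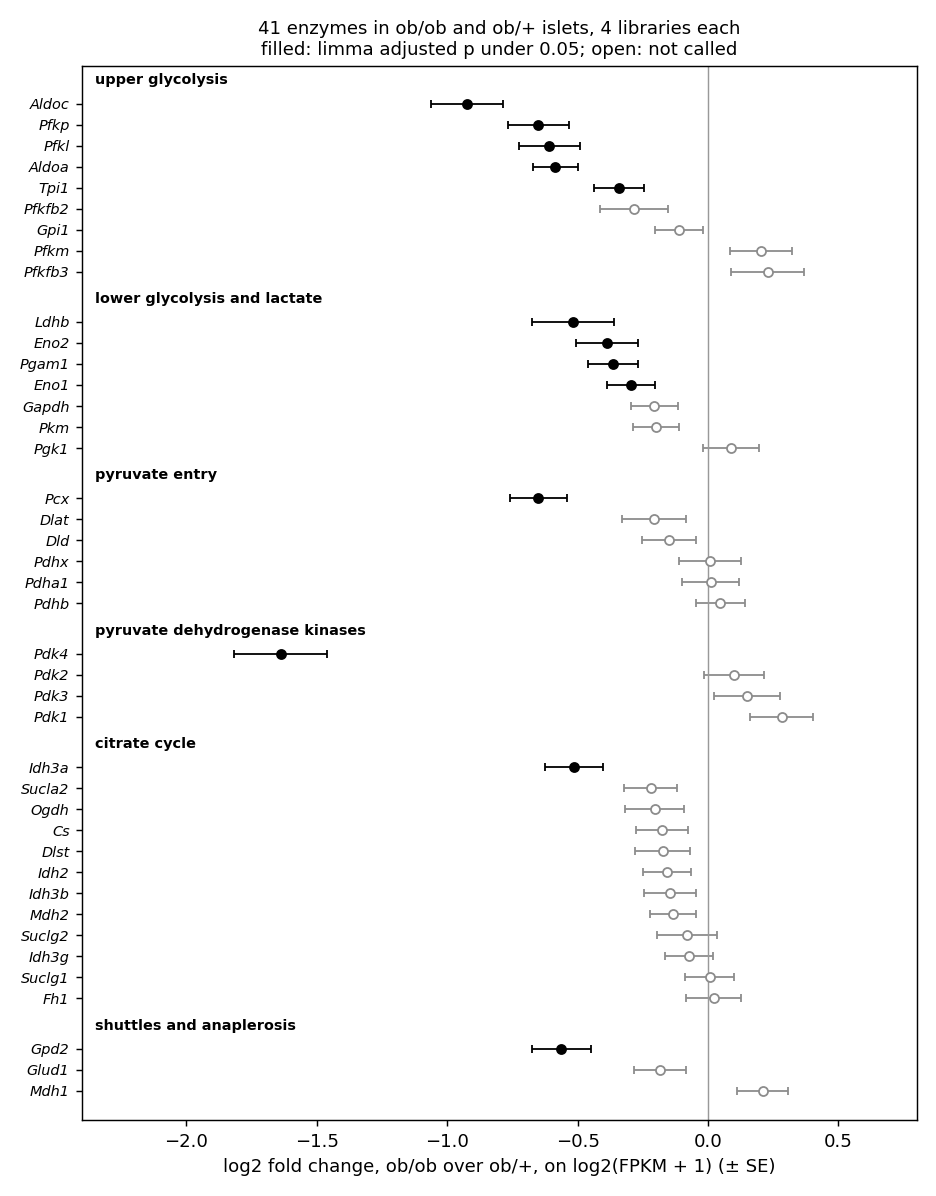
Log2 fold change of each of the 41 enzymes, ob/ob over ob/+, on the log2(FPKM + 1) scale with its standard error (4 libraries each), grouped by step. Filled points passed the test; they run from -1.64 for Pdk4 to -0.29 for Eno1, and no filled point lies above 0.

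Upper glycolysis held 5 of the 13 calls among 9 enzymes (55.6%, where 10.6% of all tested genes fell). Aldolase A (Aldoa, GRCm38 chromosome 7, 126795234 to 126800751, minus strand), which splits fructose bisphosphate into triose phosphates, was at 156, 166, 175 and 159 FPKM in ob/ob 1 to 4, against 268, 257, 239 and 223 FPKM in ob/+ 1 to 4. Every ob/ob library lay below every ob/+ library, and the mean fell by 33.6% (log2 fold change -0.58 ± 0.09 SE, adjusted p = 1.85e-05). Aldolase C (Aldoc, chromosome 11, 78322968 to 78327781, plus strand), the isoform typical of brain, was far scarcer, at 1.65, 1.38, 1.57 and 1.31 FPKM in ob/ob against 4.58, 2.86, 3.03 and 4.58 FPKM in ob/+. The groups did not overlap, and the gene fell (-0.92 ± 0.14 SE, adjusted p = 2.10e-05). GENCODE holds 4 pseudogenes at least 90% identical to Aldoa and the retrogenes Aldoart1 and Aldoart2, of which Aldoart2 averaged 0.021 FPKM over the libraries. It also lists a second gene named Aldoa, at 126800790 to 126809108 on the same strand. Which of the 2 the deposited value counts is not given in the sources used here. Fam57b, which lies across Aldoa on the other strand, averaged 10.8 FPKM. Whether the counting used strand is not given in the sources used here.

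Triose phosphate isomerase (Tpi1, chromosome 6, 124810586 to 124814296, minus strand), which interconverts the products of aldolase, was at 33.7, 39.3, 38.2 and 35.3 FPKM in ob/ob and at 48.0, 48.7, 44.1 and 45.7 FPKM in ob/+. The groups did not overlap and the mean fell by 21.4% (-0.34 ± 0.10 SE, adjusted p = 0.0131). The call was lost without ob/ob 1 (adjusted p = 0.0685) and when the total left out its 10 most abundant genes (0.307). At least 1 pseudogene is 90% identical or more to Aldoa, Tpi1, Pgam1, Eno1, Ldhb, Gapdh, Pkm, Pgk1, Gpi1, Pdha1, Pdhb, Cs, Suclg2 and Glud1, which makes those values uncertain. None was found for Pfkl, Pfkp, Aldoc, Pcx, Pdk4, Idh3a or Gpd2. Glucose phosphate isomerase (Gpi1), which opens the path from glucose phosphate to fructose phosphate, had 51.1 to 55.6 FPKM in ob/ob and 52.2 to 60.4 FPKM in ob/+ and did not pass (-0.11 ± 0.09 SE, adjusted p = 0.442).

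Of the 3 phosphofructokinases, which catalyse the committed step of glycolysis, 2 fell, where 10.6% of all tested genes fell. The liver-type enzyme Pfkl (chromosome 10, 77986947 to 78010083, minus strand) was at 6.57, 7.26, 7.85 and 6.87 FPKM in ob/ob against 12.2, 11.6, 12.2 and 9.70 FPKM in ob/+. The platelet-type enzyme Pfkp (chromosome 13, 6579768 to 6648777, minus strand) was at 2.46, 2.99, 3.24 and 2.76 FPKM in ob/ob against 5.0, 5.35, 5.09 and 4.75 FPKM in ob/+. In neither gene did the groups overlap, and both fell, Pfkl by 0.61 ± 0.12 SE on the log2 scale (adjusted p = 0.000471) and Pfkp by 0.65 ± 0.12 (adjusted p = 0.000256). The muscle-type enzyme Pfkm (chromosome 15, 98092589 to 98132451, plus strand), the most abundant of the family, was at 21.8, 22.7, 22.6 and 17.9 FPKM in ob/ob against 19.6, 20, 19.5 and 14.5 FPKM in ob/+. The fourth library was the lowest in each genotype, ob/ob 4 lay below 3 of the ob/+ libraries, and Pfkm did not pass (0.20 ± 0.12 SE, adjusted p = 0.252). With median centring and with upper quartile scaling it was called higher (adjusted p = 0.0145 and 0.0169), and its estimate was -0.05 when totals were taken without acinar genes. Pitrm1, which overlaps Pfkp on the other strand, averaged 11.3 FPKM, and Senp1, which overlaps Pfkm in the same way, 3.23 FPKM.

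Taken as shares of the summed FPKM of the family, which do not depend on the library scaling, Pfkm made up 65.0% to 70.8% in ob/ob and 50.1% to 54.1% in ob/+. Pfkl made up 21.3% to 24.9% in ob/ob and 31.4% to 33.5% in ob/+, and Pfkp 7.97% to 10.03% in ob/ob and 13.6% to 16.4% in ob/+. None of the 3 shares overlapped between genotypes. The Pfkl to Pfkm ratio averaged 0.338 ± 0.036 in ob/ob and 0.625 ± 0.036 in ob/+ (n = 4 each, SD; log2 difference -0.89; exact two-sided permutation p = 0.0286, 0.0571 after adjustment over 10 ratios). A p of 0.0286 is the smallest that 4 against 4 libraries allow, so the adjusted value stays above 0.05 however far the groups lie apart unless more than 5 of the 10 ratios separate fully. The 10 ratios were chosen with earlier results of these data known, so their p-values are descriptive and give no independent support. The Pfkl to Pfkp ratio overlapped, at 2.50 ± 0.116 in ob/ob and 2.26 ± 0.189 in ob/+ (n = 4 each, SD; exact permutation p = 0.0857, 0.122 adjusted).

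The promoters of the 3 phosphofructokinases are shown because Pfkl and Pfkp fell while Pfkm did not pass. They span 250 bases before to 50 after a transcription start in RefSeq (GRCm38.p6), read 5′ to 3′ on the strand of the gene, at chr10:78009758-78010057 (minus) for Pfkl, chr13:6648722-6649021 (minus) for Pfkp and chr15:98092339-98092638 (plus) for Pfkm, which has 4 listed starts, the first of them shown. Capitals mark ACGTG or GCGTG on either strand, the core of the hypoxia response element.
Pfkl: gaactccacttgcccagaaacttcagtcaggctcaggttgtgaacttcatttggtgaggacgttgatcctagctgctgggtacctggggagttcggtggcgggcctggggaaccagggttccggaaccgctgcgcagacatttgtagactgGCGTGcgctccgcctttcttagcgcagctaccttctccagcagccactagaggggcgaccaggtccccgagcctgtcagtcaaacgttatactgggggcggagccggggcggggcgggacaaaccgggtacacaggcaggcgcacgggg
Pfkp: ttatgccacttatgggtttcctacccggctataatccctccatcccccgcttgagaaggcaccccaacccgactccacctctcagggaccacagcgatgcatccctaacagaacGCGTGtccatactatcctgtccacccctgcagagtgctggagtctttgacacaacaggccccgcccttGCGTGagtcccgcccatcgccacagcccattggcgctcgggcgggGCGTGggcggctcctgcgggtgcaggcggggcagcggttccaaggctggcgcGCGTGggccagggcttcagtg
Pfkm: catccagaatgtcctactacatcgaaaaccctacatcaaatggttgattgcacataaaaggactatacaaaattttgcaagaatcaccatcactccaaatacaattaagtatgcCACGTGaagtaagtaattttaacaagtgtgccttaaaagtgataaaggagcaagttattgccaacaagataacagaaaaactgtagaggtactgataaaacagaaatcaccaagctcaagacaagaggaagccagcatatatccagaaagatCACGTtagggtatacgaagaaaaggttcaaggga
The Pfkp window holds 4 such matches and 4 matches to GGGCGG, the GC box. The Pfkl window holds 1 and 3, and the Pfkm window 3 and 0, where CACGTG, which reads the same on both strands, counts as 2 matches to the shorter motif. Counts for the other listed Pfkm starts are not given, so these windows do not compare the promoters of the genes as a whole. Over the 40 enzymes with a promoter in the table, 72.1% of 61 promoters held ACGTG or GCGTG, against 43.8% of all 32851 promoters, and the share was 73.7% for enzymes that fell and 71.4% for those not called. GGGCGG was in 57.4% of the enzyme promoters and 35.7% of all promoters, CCAAT in 49.2% and 37.4%, and CACGTG in 13.1% and 7.15%, each searched on both strands. For enzymes that fell and those not called, GGGCGG was in 57.9% and 57.1%, and CCAAT in 52.6% and 47.6%. CACGTG was in 1 of 19 promoters of enzymes that fell and 7 of 42 of the others (5.26% and 16.7%). These differences were not tested. Idh3a, which fell, had no listed promoter.

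The enzymes that make and remove an allosteric activator of phosphofructokinase were not called. Pfkfb2, the more abundant, was at 19.4, 18.5, 24.1 and 20.2 FPKM in ob/ob and at 27.1, 27.8, 28.9 and 18.3 FPKM in ob/+, where ob/+ 4 stood below every ob/ob library and the other ob/+ libraries above them all (-0.28 ± 0.13 SE, adjusted p = 0.139). The gene model Gm29427 overlaps Pfkfb2 by 26618 bases on the same strand and shares sequence with it at 90% identity or more. The Pfkfb2 value is therefore uncertain. Pfkfb3, the inducible isoform, had 1.67 to 2.85 FPKM in ob/ob and 1.48 to 2.33 FPKM in ob/+ (0.23 ± 0.14 SE, adjusted p = 0.276). Their ratio, Pfkfb2 over Pfkfb3, averaged 9.35 ± 2.13 across the ob/ob libraries and 14.5 ± 3.19 across the ob/+ libraries (n = 4 each, SD; exact permutation p = 0.0571, 0.0952 adjusted).

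**Figure D2:**
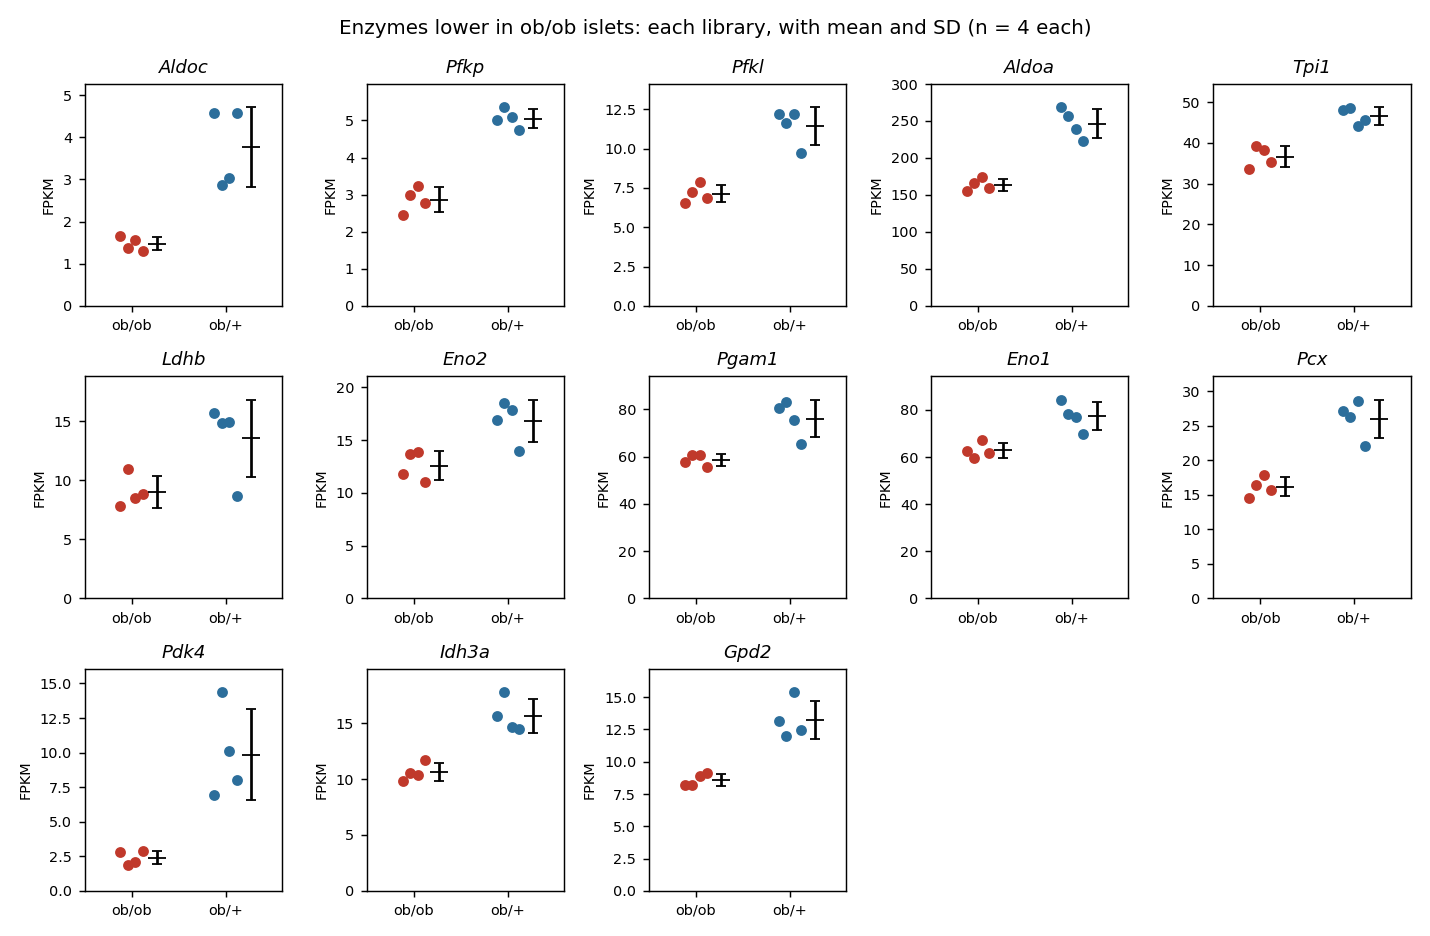
FPKM of the 13 enzymes called lower, in each ob/ob library (left) and each ob/+ library (right), with the mean and SD of 4 libraries beside the points; each vertical axis starts at 0. In 12 of the 13 the groups do not overlap; in Ldhb the ob/+ 4 library, at 8.70 FPKM, lies among the ob/ob libraries.

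In lower glycolysis 4 of 7 enzymes fell (57.1%, where 10.6% of all tested genes fell). Phosphoglycerate mutase (Pgam1, chromosome 19, 41911923 to 41918660, plus strand) was at 57.6, 60.7, 60.7 and 55.7 FPKM in ob/ob against 80.5, 83.1, 75.6 and 65.2 FPKM in ob/+. The groups did not overlap (-0.36 ± 0.10 SE, adjusted p = 0.00863), and the call was kept on leaving out any library. Of the enolases, which make phosphoenolpyruvate, the ubiquitous Eno1 (chromosome 4, 150236721 to 150248879, plus strand) was at 62.4, 59.6, 67.2 and 61.8 FPKM in ob/ob against 84.2, 78.4, 76.9 and 69.8 FPKM in ob/+. The neuronal and endocrine Eno2 (chromosome 6, 124760053 to 124769673, minus strand) was at 11.8, 13.7, 13.9 and 11.1 FPKM in ob/ob against 16.9, 18.5, 17.8 and 14.0 FPKM in ob/+. Both fell (-0.29 ± 0.09 SE, adjusted p = 0.0272 and -0.39 ± 0.12 SE, adjusted p = 0.0223), but neither call was kept throughout. Eno1 lost its call without ob/ob 1, 2 or 4 or without ob/+ 1, 2 or 3 (adjusted p = 0.0567 to 0.120), and Eno2 without ob/ob 1 or 4 or without ob/+ 1, 2 or 3 (0.0674 to 0.0948). Their ratio was 5.03 ± 0.544 in ob/ob and 4.63 ± 0.412 in ob/+ (n = 4 each, SD; exact permutation p = 0.314).

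Lactate dehydrogenase B (Ldhb, chromosome 6, 142490249 to 142507957, minus strand), the subunit that favours lactate as its substrate, was at 7.78, 10.9, 8.45 and 8.84 FPKM in ob/ob against 15.7, 14.8, 14.96 and 8.70 FPKM in ob/+. The ob/+ 4 library lay among the ob/ob libraries, so the groups overlapped, although the gene passed the test (-0.52 ± 0.16 SE, adjusted p = 0.0269). Its call was lost without ob/ob 1, 3 or 4 or without ob/+ 1, 2 or 3 (adjusted p = 0.0596 to 0.0956) and with no filter on low values (0.0675), and without ob/+ 4 the log2 change was -0.70 (adjusted p = 3.30e-05).

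The other 3 enzymes of lower glycolysis did not pass. Glyceraldehyde phosphate dehydrogenase (Gapdh) was at 305, 326, 384 and 397 FPKM in ob/ob against 424, 424, 385 and 388 FPKM in ob/+, with ob/ob 1 and 2 lowest and ob/ob 4 above 2 of the ob/+ libraries (-0.21 ± 0.09 SE, adjusted p = 0.119). GENCODE lists 171 pseudogenes at least 90% identical to it, so its reads may be divided. Pyruvate kinase (Pkm), which releases pyruvate, had 185 to 201 FPKM in ob/ob and 191 to 242 FPKM in ob/+ (-0.20 ± 0.09 SE, adjusted p = 0.122). Phosphoglycerate kinase (Pgk1) had 34.2 to 41.3 FPKM in ob/ob and 30.7 to 40.4 FPKM in ob/+ (0.09 ± 0.11 SE, adjusted p = 0.608). Gapdh, often used to normalise other assays, averaged 353 ± 44.6 FPKM in ob/ob and 405 ± 21.5 FPKM in ob/+ (n = 4 each, SD).

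Summed over its 9 enzymes, upper glycolysis held 296, 313, 331 and 297 FPKM in ob/ob 1 to 4, against 447, 432, 413 and 374 FPKM in ob/+ 1 to 4. Aldoa makes up more than any other enzyme of that sum. Lower glycolysis, with 7 enzymes, held 673 to 777 FPKM in ob/ob and 771 to 902 FPKM in ob/+, where ob/ob 3 lay above ob/+ 4. The citrate cycle enzymes held 384 to 400 FPKM in ob/ob and 399.9 to 452 FPKM in ob/+, where ob/ob 3 lay just above ob/+ 4. In the pyruvate group ob/+ 4, at 118 FPKM, lay among the ob/ob libraries, which held 117 to 125 FPKM.

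At the entry of pyruvate into the mitochondrion 1 of 6 enzymes fell (16.7%, where 10.6% of all tested genes fell). Pyruvate carboxylase (Pcx, chromosome 19, 4510472 to 4621752, plus strand), which makes oxaloacetate, was at 14.6, 16.5, 17.9 and 15.6 FPKM in ob/ob against 27.1, 26.2, 28.5 and 22.1 FPKM in ob/+. No ob/ob library reached the lowest ob/+ library, and the mean fell by 37.8% (-0.65 ± 0.11 SE, adjusted p = 0.000104). Lrfn4, inside the Pcx gene on the other strand, averaged 12.1 FPKM. None of the subunits of the pyruvate dehydrogenase complex, which makes acetyl-CoA, passed the test. Its catalytic subunits Pdha1, at 21.6, 23.0, 24.1 and 25.4 FPKM in ob/ob and 25.5, 26.0, 22.4 and 19.9 FPKM in ob/+, and Pdhb, at 45.2, 46.6, 46.4 and 46.5 FPKM in ob/ob and 44.4, 48.6, 43.9 and 41.8 FPKM in ob/+, overlapped. Map3k15, which overlaps Pdha1 by 1143 bases on the other strand, averaged 46.2 FPKM over all libraries, above Pdha1 itself, and its part in the Pdha1 values was not tested. The 95% interval of the log2 change of Pdha1 ran from -0.21 to 0.23 and that of Pdhb from -0.14 to 0.24. The complex's acetyltransferase Dlat averaged 9.43 ± 0.879 FPKM in ob/ob and 11.1 ± 1.56 FPKM in ob/+, its flavoprotein Dld 23.1 ± 1.26 FPKM in ob/ob and 25.8 ± 2.45 FPKM in ob/+, and its binding protein Pdhx 3.68 ± 0.236 FPKM in ob/ob and 3.66 ± 0.353 FPKM in ob/+. Dlat (-0.21 ± 0.12 SE), Dld (-0.15 ± 0.10) and Pdhx (0.01 ± 0.12) did not pass either (adjusted p = 0.262, 0.343 and 0.975).

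The ratio of Pcx to Pdha1 was 0.675, 0.714, 0.744 and 0.617 in ob/ob 1 to 4, against 1.06, 1.01, 1.27 and 1.11 in ob/+ 1 to 4. All ob/ob libraries were below 1 and all ob/+ libraries above it, a log2 difference of -0.69 (exact permutation p = 0.0286, 0.0571 adjusted over 10 ratios). This pair too was chosen with earlier results known, so its p-value is descriptive.

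The pyruvate dehydrogenase kinases switch that complex off by phosphorylation, and Pdk4 (chromosome 6, 5483351 to 5496309, minus strand), the isoform known to rise in fasting and with fatty acids, fell furthest of the 41 enzymes. It was at 2.79, 1.89, 2.07 and 2.85 FPKM in ob/ob against 6.93, 14.3, 10.1 and 8.0 FPKM in ob/+. Every ob/ob library was below the lowest ob/+ library, and the mean fell by 75.6% (-1.64 ± 0.18 SE, adjusted p = 6.47e-06), the 35th lowest log2 change among 11747 genes. Pdk1, the isoform known as a hypoxia target, was at 6.58, 6.26, 7.52 and 6.48 FPKM in ob/ob against 5.48, 5.18, 6.17 and 4.57 FPKM in ob/+. Although each ob/ob library lay above each ob/+ library, Pdk1 did not pass (0.28 ± 0.12 SE, adjusted p = 0.106). It passed as higher with median centring (adjusted p = 0.00348) and with upper quartile scaling (0.00661).

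Pdk2, the most abundant kinase, was at 18.7, 20.4, 18.4 and 14.1 FPKM in ob/ob and 17.4, 16.1, 16.1 and 16.4 FPKM in ob/+, with ob/ob 4 lowest of all. Pdk3 had 6.64 to 7.71 FPKM in ob/ob and 5.17 to 8.15 FPKM in ob/+. Neither passed (0.10 ± 0.12 SE, adjusted p = 0.592 and 0.15 ± 0.13 SE, adjusted p = 0.446). As a share of the 4 kinases' summed FPKM, Pdk4 was 5.27% to 9.22% in ob/ob and 19.2% to 34.0% in ob/+, while Pdk1 was 17.5% to 21.1% in ob/ob and 12.3% to 15.2% in ob/+. The log2 ratio of Pdk4 to Pdk2 was -2.91 ± 0.489 in ob/ob and -0.80 ± 0.501 in ob/+ (n = 4 each, SD; exact permutation p = 0.0286, 0.0571 adjusted), and that of Pdk1 to Pdk2 overlapped (exact permutation p = 0.2).

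Promoters of Pcx and Pdk4 are shown as those of the enzymes that route pyruvate and that changed. RefSeq (GRCm38.p6) lists 2 starts for Pcx, at chr19:4510222-4510521 and chr19:4594069-4594368 (both plus), which the deposited value per gene cannot tell apart, and 1 for Pdk4, at chr6:5496229-5496528 (minus). Capitals again mark ACGTG or GCGTG on either strand.
Pcx, upstream start: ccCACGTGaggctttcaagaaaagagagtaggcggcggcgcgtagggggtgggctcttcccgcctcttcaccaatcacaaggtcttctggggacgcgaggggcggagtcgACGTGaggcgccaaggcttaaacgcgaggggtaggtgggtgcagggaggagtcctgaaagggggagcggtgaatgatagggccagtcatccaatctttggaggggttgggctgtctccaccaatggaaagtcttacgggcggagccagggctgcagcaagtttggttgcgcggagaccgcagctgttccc
Pcx, downstream start: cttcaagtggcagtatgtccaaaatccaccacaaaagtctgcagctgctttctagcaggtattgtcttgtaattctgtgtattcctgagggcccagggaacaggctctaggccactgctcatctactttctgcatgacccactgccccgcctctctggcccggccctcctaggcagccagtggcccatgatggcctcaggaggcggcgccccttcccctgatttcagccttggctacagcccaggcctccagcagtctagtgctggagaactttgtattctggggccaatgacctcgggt
Pdk4: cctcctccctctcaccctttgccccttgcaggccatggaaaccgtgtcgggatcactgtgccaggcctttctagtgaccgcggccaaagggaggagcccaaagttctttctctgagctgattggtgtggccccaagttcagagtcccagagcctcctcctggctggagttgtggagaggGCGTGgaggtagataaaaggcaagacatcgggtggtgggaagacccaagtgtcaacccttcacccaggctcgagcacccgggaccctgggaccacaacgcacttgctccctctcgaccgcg
The upstream Pcx window holds 3 such matches and 3 to CCAAT. The downstream window holds 0 and 1, and the Pdk4 window 1 and 1.

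**Figure D3:**
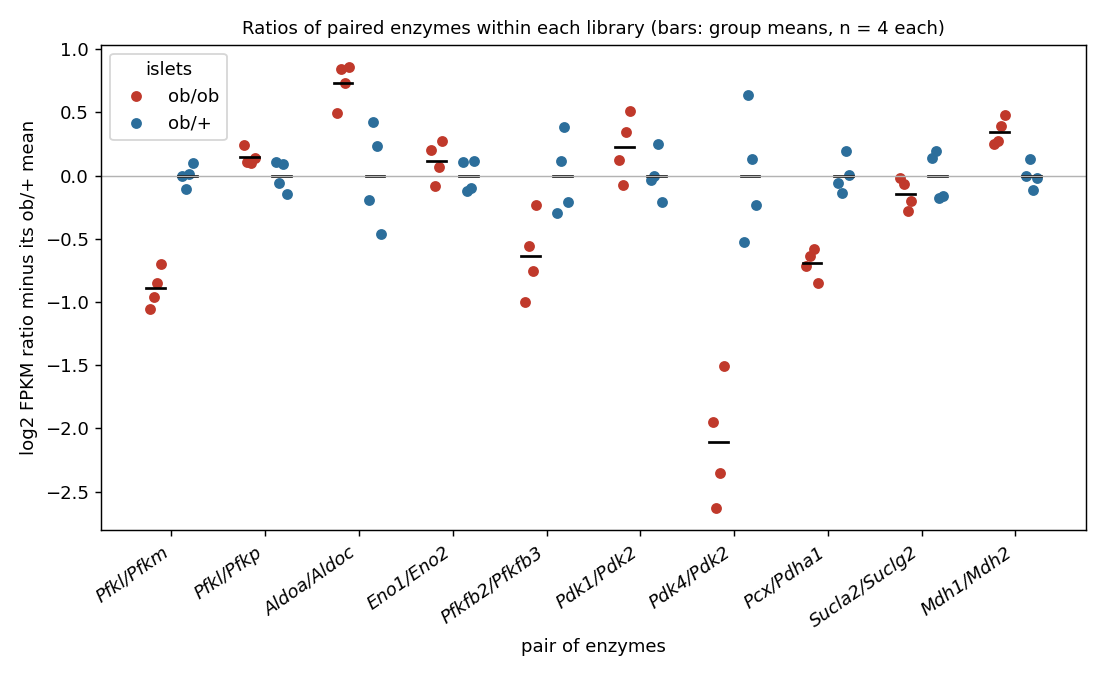
Log2 ratio of FPKM of 10 pairs of enzymes in each library, minus the mean of that ratio in ob/+; bars are group means of 4 libraries. The groups separate fully for Pfkl/Pfkm, Pdk4/Pdk2 and Pcx/Pdha1, where ob/ob is lower, and for Aldoa/Aldoc and Mdh1/Mdh2, where ob/ob is higher.

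In the citrate cycle 1 of 12 enzymes fell (8.33%, where 10.6% of all tested genes fell). Idh3a (chromosome 9, 54586334 to 54604661, plus strand), the catalytic subunit of the NAD-linked isocitrate dehydrogenase, was at 9.86, 10.6, 10.4 and 11.7 FPKM in ob/ob against 15.7, 17.7, 14.6 and 14.5 FPKM in ob/+. The groups did not overlap, and its mean fell by 32.0% (-0.51 ± 0.11 SE, adjusted p = 0.00174). Its partner subunits were more abundant and did not pass: Idh3b had 28.4 to 30.9 FPKM in ob/ob and 28.9 to 36.6 FPKM in ob/+ (adjusted p = 0.342), and Idh3g 51.5 to 56.6 FPKM in ob/ob and 55.3 to 61.0 FPKM in ob/+ (adjusted p = 0.625). The difference between the subunits was not tested. Idh2, the NADP-linked mitochondrial isoform, had 42.4 to 45.2 FPKM in ob/ob and 46.5 to 53.2 FPKM in ob/+, without overlap but without passing (-0.16 ± 0.09 SE, adjusted p = 0.255).

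The remaining cycle enzymes did not pass. Malate dehydrogenase Mdh2, the most abundant of the cycle, was at 79.6, 83.4, 83.7 and 82.9 FPKM in ob/ob against 96.3, 90.8, 89.1 and 86.1 FPKM in ob/+, without overlap (-0.13 ± 0.09 SE, adjusted p = 0.306). Sucla2, the ATP-forming subunit of succinyl-CoA ligase, did not overlap either, with 18.0 to 19.2 FPKM in ob/ob and 20.3 to 23.5 FPKM in ob/+ (-0.22 ± 0.10 SE, adjusted p = 0.142). Citrate synthase (Cs), which opens the cycle, averaged 23.6 ± 1.23 FPKM in ob/ob and 26.7 ± 1.56 FPKM in ob/+. Of the oxoglutarate dehydrogenase subunits, Ogdh averaged 33.6 ± 2.64 FPKM in ob/ob and 39.2 ± 6.31 FPKM in ob/+, and Dlst 24.5 ± 1.16 FPKM in ob/ob and 27.9 ± 3.17 FPKM in ob/+. Cs, Ogdh and Dlst had log2 changes of -0.17, -0.20 and -0.17 (adjusted p = 0.242, 0.230 and 0.271). The GTP-forming subunit Suclg2 averaged 9.27 ± 0.987 FPKM in ob/ob and 9.84 ± 0.717 FPKM in ob/+, a log2 change of -0.08 (adjusted p = 0.677). Nearest to no difference were Suclg1, the shared ligase subunit, at 31.7 to 34.1 FPKM in ob/ob and 32.2 to 33.8 FPKM in ob/+, and fumarase (Fh1), at 25.8 to 32.0 FPKM in ob/ob and 24.9 to 30.3 FPKM in ob/+, whose 95% intervals ran from -0.19 to 0.20 and from -0.19 to 0.24 on the log2 scale. The Sucla2 to Suclg2 ratio overlapped, with 2.02 ± 0.166 for the ob/ob islets and 2.24 ± 0.301 for the ob/+ islets (n = 4 each, SD; exact permutation p = 0.257).

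Of 3 enzymes of the shuttles, which hand electrons of cytosolic NADH to mitochondria, and of anaplerosis, which refills the cycle, 1 fell. That is 33.3%, where 10.6% of all tested genes fell. Mitochondrial glycerol phosphate dehydrogenase (Gpd2, chromosome 2, 57237635 to 57370719, plus strand) was at 8.22, 8.22, 8.88 and 9.13 FPKM in ob/ob against 13.2, 12.0, 15.4 and 12.4 FPKM in ob/+. The groups did not overlap and the mean fell by 34.9% (-0.56 ± 0.11 SE, adjusted p = 0.000867). Cytosolic malate dehydrogenase (Mdh1), of the malate-aspartate shuttle, was at 73.2, 77.5, 84.6 and 89.1 FPKM in ob/ob against 73.9, 76.9, 63.6 and 65.6 FPKM in ob/+, with ob/ob 1 inside the range of ob/+. It did not pass (0.21 ± 0.10 SE, adjusted p = 0.141), it was called higher with median centring (0.0396) and upper quartile scaling (0.0476), and its estimate was -0.05 when totals were taken without acinar genes. The Mdh1 to Mdh2 ratio was 0.984 ± 0.073 in ob/ob and 0.773 ± 0.055 in ob/+ (n = 4 each, SD), without overlap (log2 difference 0.35; exact permutation p = 0.0286, 0.0571 adjusted). Glutamate dehydrogenase (Glud1), which feeds oxoglutarate into the cycle, had 25.3 to 29.2 FPKM in ob/ob and 28.1 to 33.1 FPKM in ob/+ (-0.18 ± 0.10 SE, adjusted p = 0.213).

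How much of the set counted as lower depended on the library scaling. Of the 5 other scalings tried, median centring and upper quartile scaling each called 13 lower and 3 higher (Pfkm, Pdk1 and Mdh1), beside 13.7% and 15.5% of all genes lower and 15.5% and 14.0% higher. When totals were taken without acinar genes 33 enzymes were lower, beside 51.9% of all genes, and the median log2 change of all genes was -0.29, against -0.07 as deposited. With all libraries scaled to equal summed FPKM, a setting chosen after seeing the data, 27 were lower, beside 26.7% of all genes, and that median was -0.22. Among all genes 1243 were lower and 965 higher with the deposited scaling, 629 and 1272 without the 10 most abundant genes in the total, 6101 and 520 without the acinar genes, and 3131 and 522 with equal sums. The 8 enzymes named above kept their call in all 5. Among those 5 their estimate nearest to 0 was -0.40 for Idh3a, -0.45 for Gpd2, -0.46 for Aldoa, -0.50 for Pfkl, -0.54 for Pcx, -0.55 for Pfkp, -0.84 for Aldoc and -1.54 for Pdk4.

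**Figure D4:**
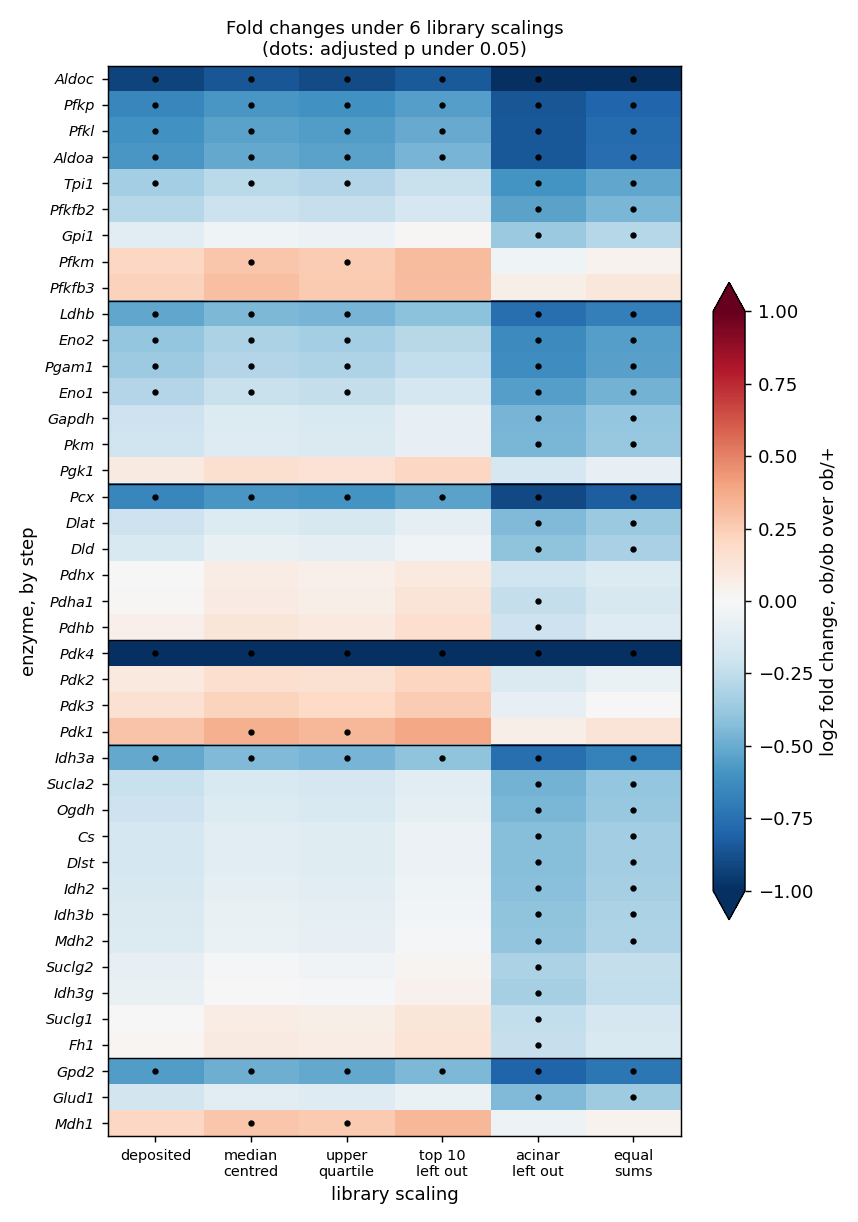
Log2 fold change, ob/ob over ob/+, of the 41 enzymes (rows, by step) under the deposited scaling and 5 others (columns), with a dot where the adjusted p was under 0.05; the colour scale is cut at -1 and 1. Dots fill the whole row for 8 enzymes, and most other dots stand in the columns without acinar genes in the total (33 enzymes lower) and with equal sums (27 lower).

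Neighbouring enzymes of the same pathways, a list of 50 genes, changed in both directions. Of 43 tested, 7 fell (16.3%, where 10.6% of all tested genes fell) and 3 rose (6.98%, where 8.21% rose). The mitochondrial pyruvate carrier subunit Mpc1, through which pyruvate enters the mitochondrion, was at 23.3, 24.2, 24.2 and 29.0 FPKM in ob/ob against 41.1, 35.9, 36.4 and 34.9 FPKM in ob/+ (-0.54 ± 0.10 SE, adjusted p = 0.000405). Its partner Mpc2 averaged 18.3 FPKM in ob/ob and 19.4 FPKM in ob/+ and did not pass (adjusted p = 0.698). In the pentose phosphate pathway transketolase (Tkt) averaged 13.5 ± 0.822 FPKM in ob/ob and 20.5 ± 0.821 FPKM in ob/+ (n = 4 each, SD). Ribose phosphate isomerase (Rpia) averaged 6.19 ± 0.593 FPKM in ob/ob and 9.90 ± 0.831 FPKM in ob/+. Both fell, by 0.57 ± 0.10 SE and 0.60 ± 0.12 SE on the log2 scale (adjusted p = 0.000299 and 0.000561). The oxidative enzymes of that pathway, G6pdx and Pgd, did not pass (adjusted p = 0.594 and 0.688).

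The others that fell were Fbp1, Tigar, Ogdhl and Acly. The gluconeogenic enzyme Fbp1 averaged 0.640 ± 0.048 FPKM in ob/ob and 1.96 ± 0.187 FPKM in ob/+ (adjusted p = 6.47e-06). With 0.59 to 0.69 FPKM in ob/ob, Fbp1 passed the filter only through the ob/+ libraries, so its call is not independent of how it entered the test. It was not tested in fits that left out an ob/+ library, where it missed the filter. Tigar, which lowers the phosphofructokinase activator, averaged 4.84 ± 0.681 FPKM in ob/ob and 7.69 ± 1.69 FPKM in ob/+ (adjusted p = 0.00541). The oxoglutarate dehydrogenase isoform Ogdhl averaged 20.9 ± 2.39 FPKM in ob/ob and 29.8 ± 3.86 FPKM in ob/+ (adjusted p = 0.00337), and its call was lost without the 10 most abundant genes in the total (0.0516). ATP citrate lyase (Acly), which makes cytosolic acetyl-CoA, averaged 179 ± 7.94 FPKM in ob/ob and 215 ± 22.9 FPKM in ob/+ (adjusted p = 0.0477). Acly kept its call without ob/+ 4 and lost it without each of the other 7 libraries (adjusted p = 0.0603 to 0.189). It also lost its call with median centring (0.0892), with upper quartile scaling (0.066), without the 10 most abundant genes in the total (0.524), with no filter on low values (0.0719) and with eBayes without robust (0.0863).

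Those that rose were Me3, Gpd1 and Bpgm. Mitochondrial malic enzyme Me3, which makes pyruvate from malate, was at 3.08, 2.72, 3.08 and 2.74 FPKM in ob/ob against 0.94, 1.08, 1.39 and 0.81 FPKM in ob/+, without overlap (0.93 ± 0.12 SE, adjusted p = 4.09e-06). With 0.94 and 0.81 FPKM in ob/+ 1 and 4, Me3 met the filter only through the higher ob/ob libraries. Its call is therefore not independent of how it entered the test, in any scaling. Cytosolic glycerol phosphate dehydrogenase Gpd1, the shuttle partner of Gpd2, averaged 13.3 ± 1.78 FPKM in ob/ob and 9.49 ± 1.18 FPKM in ob/+ (n = 4 each, SD; limma adjusted p = 0.0116), and its call was lost without ob/ob 1 (0.0752). Bisphosphoglycerate mutase Bpgm averaged 12.8 ± 0.450 FPKM in ob/ob and 9.19 ± 0.938 FPKM in ob/+ (adjusted p = 0.00641). The calls of Gpd1 and Bpgm were lost without acinar genes in the total and with equal sums, and Me3 was called higher under all 5 other scalings. Below the expression filter, phosphoenolpyruvate carboxykinase Pck1 was listed at 0.38 to 0.94 FPKM in ob/ob and 0 to 0.09 FPKM in ob/+, and Fbp2 at 0.40 to 0.92 FPKM in ob/ob and 0.05 to 0.35 FPKM in ob/+.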

How the data were processed

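RNA of pancreatic islets was sequenced in 8 libraries, 4 ob/ob and 4 ob/+, grouped by the genotype in the labels. The authors deposited 1 table per library with FPKM values, a unit inferred from the values (2 decimals, differing sums) and named in neither labels nor file headers. Per the submitters' processing notes, tools named were Trimmomatic 0.36 and DESeq2 1.20.0 and builds were mm10 and GRCm38, with no role stated. Aligner and quantifier: not given in the sources used here. Of 20715 listed genes 3314 had no value. FPKM carries no counts, so absolute depth is unknown and no counting intervals are given.

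A gene entered the test when 4 or more libraries held it at 1 FPKM or above. The test was two-sided limma 3.58.1 (R 4.3.3, trended and robust eBayes, for which statmod 1.5.0 was used) on log2 values after adding 1 FPKM, with Benjamini-Hochberg adjustment over all 11747 tested genes. This scale understates the change of low genes. The test was checked on simulated data with independent noise for each gene, a check that does not cover shifts shared by a whole library. Ratios were compared by exact permutation over 70 assignments with SciPy 1.17.1. Enzymes and neighbouring genes that passed are named, and enzymes that passed are given per library. The members, lists and ratios were chosen with earlier results of these data known. Positions are from GENCODE for GRCm38, promoters from RefSeq, and near-identical copies were found with minimap2 (at least 90% identity over 50% of the copy and 300 bases). No libraries were duplicates (at most 2.68% of nonzero values identical). Alternatives covered scaling, filter, pseudocount, moderation, replicate block, acinar covariate and each library left out.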

Additional observations from a re-analysis of the deposited data

Results flagged for a closer look

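Of 104 groups of 4 libraries examined for a library far from the others, 5 stood out, where chance gives about 1 in 20, or 5.2. In each the gap to the nearest library took most of the range of the group. Pfkm was low in ob/ob 4, at 17.9 FPKM where the other ob/ob libraries had 21.8 to 22.7, and in ob/+ 4, at 14.5 FPKM where the other ob/+ libraries had 19.5 to 20. Pfkfb2 was low in ob/+ 4, at 18.3 FPKM against 27.1 to 28.9, and so was Ldhb, at 8.70 FPKM against 14.8 to 15.7. Idh3g was high in ob/+ 2, at 61.0 FPKM against 55.3 to 56.1. The ob/+ 4 library, with 19.2% of summed FPKM in acinar genes, was the lowest of its group in 30 of the 41 enzymes and in 79.6% of all tested genes. The part of acinar RNA in these low values was not tested.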

How the results depend on the processing

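The main count of 13 enzymes lower was within 1.5 times of itself with median centring, upper quartile scaling, no filter, a filter of 5 FPKM, a pseudocount of 0.1, eBayes without robust, the replicate block (13 lower, none higher) and the acinar share as covariate (15). The share of all tested genes lower in those settings ran from 8.54% with no filter to 19.0% with the acinar covariate. The enzymes lower numbered 8 without the 10 most abundant genes in the total (5.35% of all genes) and 33 with the acinar genes left out (51.9%). They numbered 27 with equal sums (26.7%) and 20 without both ob/+ 4 and ob/ob 1 (26.0%). Leaving out 1 library gave 9 to 23 enzymes lower (23 without ob/+ 4) and none higher. Over all tested genes 5.49% to 32.1% were then lower and 6.15% to 9.51% higher. Enzymes called higher numbered 3 with median centring and with upper quartile scaling, beside 15.5% and 14.0% of all genes. With the acinar genes left out Pdha1 (-0.24), Pdhb (-0.21), Suclg1 (-0.25) and Fh1 (-0.23) were called lower. These 4 were uncalled in every other setting run, with estimates of either sign. Of the neighbouring enzymes 25 were lower with the acinar genes left out, beside 51.9% of all genes, and 12 with equal sums, beside 26.7%. Leaving out 1 library gave 5 to 12 of them lower, beside 5.49% to 32.1% of all tested genes. Neighbours called higher numbered 5 with median centring or upper quartile scaling, beside 15.5% and 14.0% of all genes. They numbered 1 with the acinar genes left out or equal sums, beside 4.43% and 4.44%. With no filter 6 were higher, beside 6.03%, and 2 to 3 on leaving out 1 library, beside 6.15% to 9.51%. Over all genes the number lower was 629 without the 10 most abundant genes, 6101 with the acinar genes left out, 3131 with equal sums, 803 at 5 FPKM, 2232 with the acinar covariate, 2988 without both ob/+ 4 and ob/ob 1, and 635 to 3728 on leaving out 1 library. The number higher was 1823 with median centring, 1640 with upper quartile scaling, 520 with the acinar genes left out, 522 with equal sums, and 713 to 1104 on leaving out 1 library. The replicate block called 1603 genes lower and 1071 higher and changed no enzyme call, and Acly alone of the named neighbours lost its call (adjusted p = 0.0552). Numbers were not taken to pair libraries, as the labels state no pairing. Same-numbered libraries' deviations from their group means correlated at -0.22, 0.212, 0.172 and 0.124. For ob/ob 2, 3 and 4 the same-numbered ob/+ library was the best match, and ob/ob 1 correlated best with ob/+ 4 (0.194). Whether the numbers mark pairs cannot be told from the labels. No ratio passed an adjusted p of 0.05 in any setting, which the small number of libraries largely fixed in advance. With 1 library left out the smallest possible two-sided p already exceeds 0.05, so no ratio could pass there. With all libraries the limit given above for the 10 ratios applies. The causes of these shifts were not tested. Absolute depth is unknown, so the precision of low values such as Aldoc and Pfkfb3 cannot be given.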
